A study of Mus musculus with 17 samples.

Results

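The genes described here are named for the proteins of the mitochondrial ribosome, and all but Mrps36, which is described with its values further on, have a place in one of its structural groups. They were chosen by name: protein-coding mouse genes in GENCODE whose symbol begins with Mrpl or Mrps and a number, with a mean of at least 1 CPM (read counts scaled to a common library size by TMM) over the 17 libraries. Of the 55487 genes in the count table, 78 matched and 77 passed that minimum, 48 of them Mrpl genes and 29 Mrps genes, spread over 17 chromosomes. The gene left out was Mrpl53, at 0.0595 CPM; 88.0% of its annotated exon bases also lie in the exons of Gm42688. All 77 also passed the filter on low counts used for the tests.

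The RNA came from the choroid plexus, the secretory tissue of the brain ventricles that makes cerebrospinal fluid, of C57BL/6 mice. The study compared untreated animals (CTRL, n = 5) with animals that received DSS (dextran sodium sulfate), a compound which damages the epithelium of the colon and serves as a model of colitis. T1 animals had 1 day of DSS, T3 animals had 3 days, and T5 animals had 3 days of DSS followed by 2 days of water (n = 4 in each group). Whole choroid plexus of the lateral ventricles was used; the sources used here do not give age and sex. The labels do not say that the samples of a group are separate animals, so p-values measure the spread between these samples, which may be technical in part.

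Mitochondria carry their own small genome, which encodes core subunits of the respiratory chain and the ATP synthase. Those few mRNAs are translated by a separate ribosome inside the organelle. Its ribosomal RNAs are made from mitochondrial DNA, but each of its proteins is encoded in the nucleus, made in the cytosol and imported. Some of these proteins descend from bacterial ribosomal proteins, and others have no bacterial counterpart. The choroid plexus epithelium is rich in mitochondria, which supply the ATP for ion pumping. The promoters of genes of this kind are known for binding sites of NRF1, of ETS-family factors such as GABPA and of YY1.

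Promoter sequence was taken from RefSeq (GRCm38.p6) for 68 of the 77 genes, as 250 bases before to 50 bases after the annotated start. Those of 4 genes are shown because the expression results name them. Mrpl40 had the smallest p at 1 day of DSS. Mrps18c and Mrpl32 were called higher in the water phase than at 1 day of DSS, which depended on the libraries and terms in the fit (given further on). Mrps27 lay closest to its control level at 1 day. They are printed 5′ to 3′ on the strand of the gene. Capitals mark matches to NRF1 (CGCANGCGC), ETS (CCGGAAG) or YY1 (AAGATGGCG) letters on either strand.
Mrpl40: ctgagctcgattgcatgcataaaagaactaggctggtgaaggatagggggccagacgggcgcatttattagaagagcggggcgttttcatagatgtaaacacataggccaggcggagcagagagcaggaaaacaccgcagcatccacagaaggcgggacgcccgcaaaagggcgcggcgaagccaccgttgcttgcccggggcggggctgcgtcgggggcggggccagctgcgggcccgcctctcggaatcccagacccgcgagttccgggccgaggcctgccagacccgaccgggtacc
Mrps18c: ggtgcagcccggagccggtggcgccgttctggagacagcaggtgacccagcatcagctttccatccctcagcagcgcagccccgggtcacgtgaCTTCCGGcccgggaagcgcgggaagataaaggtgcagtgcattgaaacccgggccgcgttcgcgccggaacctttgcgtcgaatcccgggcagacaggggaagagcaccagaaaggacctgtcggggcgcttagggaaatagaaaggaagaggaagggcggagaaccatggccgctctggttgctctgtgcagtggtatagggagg
Mrpl32: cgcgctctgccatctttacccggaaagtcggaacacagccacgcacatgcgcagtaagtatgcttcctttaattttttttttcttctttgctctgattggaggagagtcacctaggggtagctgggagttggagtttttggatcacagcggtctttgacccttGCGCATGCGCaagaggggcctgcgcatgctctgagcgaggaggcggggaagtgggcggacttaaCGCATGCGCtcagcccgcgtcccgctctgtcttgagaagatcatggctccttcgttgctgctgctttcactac
Mrps27: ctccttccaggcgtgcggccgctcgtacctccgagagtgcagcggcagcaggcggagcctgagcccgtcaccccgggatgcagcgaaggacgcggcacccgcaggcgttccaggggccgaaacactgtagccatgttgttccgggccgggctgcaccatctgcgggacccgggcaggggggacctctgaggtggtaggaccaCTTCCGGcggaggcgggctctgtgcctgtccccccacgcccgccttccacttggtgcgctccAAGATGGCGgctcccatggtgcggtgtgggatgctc
The Mrpl40 window lies at chr16:18876588-18876887 on the minus strand and held none of these 3 sets of letters. The Mrps18c window lies at chr5:100798509-100798808 on the plus strand and held 1 ETS match. The Mrpl32 window lies at chr13:14612988-14613287 on the minus strand and held 3 NRF1 matches, a pair of which overlap because these letters are nearly the same on both strands. The Mrps27 window lies at chr13:99344536-99344835 on the plus strand and held 1 ETS and 1 YY1 match.

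Matches to these letters were more frequent in the windows of the mitoribosomal genes than in those of all 17492 genes in the RefSeq table, counted the same way. ETS letters were found for 25 of the 68 genes (36.8%, against 12.9% of all genes), NRF1 letters for 18 (26.5% against 9.68%) and YY1 letters for 8 (11.8% against 2.14%). At least 1 of the 3 was found for 42 genes (61.8% against 21.9%). With the free position of the NRF1 letters fixed as T (CGCATGCGC), 7 genes held a match (10.3% against 2.61%). The shares were close to those of all genes for the GC box GGGCGG (34 genes, 50% against 49.2%), the E-box CACGTG (7.35% against 8.91%) and the cyclic AMP element TGACGTCA (2.94% against 2.54%). The ESRRA letters TNAAGGTCA were in none of the 68 windows (1.19% of all genes). These are matches of letters, given without a test. Genes with and without a match had nearly the same median log2 fold change at 1 day of DSS, -0.43 with and -0.45 without NRF1 letters, -0.43 and -0.46 for ETS, and -0.42 and -0.45 for YY1.

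Levels in the untreated choroid plexus differed widely between the genes. The 4 highest and 4 lowest were picked by their mean over all 17 libraries, and their control values are given. Per unit of exon length, as TPM, the highest were Mrps6, at 404 ± 31.7 TPM (SD, n = 5), and Mrps21, at 381 ± 26.2 TPM, both small subunit proteins with bacterial counterparts. Mrpl34, a small protein of the large subunit, followed with 361 ± 29.1 TPM and Mrpl28 with 293 ± 12.1 TPM. Of the exon bases of Mrps6, 10.4% are shared with Slc5a3 and 19.9% with Gm49711, both on the same strand. The lowest by that mean was Mrpl23, a protein at the exit of the peptide tunnel, with 6.28 ± 1.26 TPM. Mrps30 had 8.59 ± 1.07 TPM, Mrps10 had 10.2 ± 1.15 TPM and Mrps9 had 10.8 ± 1.20 TPM. The differences between the 4 highest and the 4 lowest are far larger than their SDs. Lengths were those of all annotated exons merged. With the longest transcript instead, and over all 17 libraries, Mrps21 ranked above Mrps6 and the median over the 77 genes was 61.0 TPM in place of 48.8 TPM.

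Control libraries varied little. The median SD of log2(CPM + 0.5) over the 5 controls was 0.15 for the mitoribosomal genes and 0.26 for all 16851 genes tested. These sets were not matched for level. In the same order the medians were 0.33 and 0.32 at T1, 0.37 and 0.28 at T3, and 0.18 and 0.26 at T5. For the mitoribosomal genes the median was 0.20 over T1 replicates 2 to 4 alone and 0.10 over T3 replicates 1 to 3. In the controls, Mrpl10, Mrps23, Mrps17 and Mrps5 varied least, with SDs of 0.05, 0.06, 0.06 and 0.06. Mrps30, Mrps2, Mrpl33 and Mrpl2 varied most, with SDs of 0.24, 0.23, 0.23 and 0.22. Mrps2 ran from 48.6 to 76.0 CPM in the controls and Mrps5 from 29.4 to 32.4 CPM.

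Library totals ran from 8875921 to 26839417 counts. Of the 12 choroid plexus epithelium markers, all had reads in every group, with a summed level of 98197 to 162783 CPM in 4 libraries described next and 135594 to 223053 CPM in the other 13. The 4 libraries whose sample titles carry a number of 28 or above stood apart from the other 13. These are T1 replicates 2, 3 and 4 and T3 replicate 4, and the sources used here do not say what the numbers stand for. Their totals of 8875921 to 23555242 counts lie within the range of the others except for the lowest. Counts from mitochondrial DNA made up 1.86% to 2.04% of each total, against 2.50% to 3.75% in the other 13. The 8 endothelial markers summed to 215 to 458 CPM in the 4 and to 86.2 to 208 CPM in the 13, and all 8 had reads. The 7 neuronal markers summed to 158 to 371 CPM in the 4 and to 15.6 to 486 CPM in the 13. As 3 of the 4 T1 libraries have such numbers, the title number and 1 day of DSS overlap strongly; T1 replicate 1 and T3 replicate 4 are the libraries in which they part.

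At 1 day of DSS the mitoribosomal genes lay below the controls as a group. In edgeR's fit all 77 had a negative log2 fold change, from -0.71 to -0.03 with a median of -0.45, against a median of 0.08 over all genes tested. No single gene passed the adjusted threshold of 0.05 in edgeR's quasi-likelihood test, in either direction, and neither did any of the 16851 genes (0% called). At an unadjusted p under 0.05, 56 of the 77 were lower (72.7%), against 11.7% of all genes, and none was higher, against 9.43% of all genes. DESeq2 called 21 of the 77 lower (3.28% of all genes) and none higher (1.62%) and limma-voom with sample quality weights called 62 lower (12.7%) and none higher (11.9%). With counts scaled by library totals alone the median of all genes moved to 0.21 and that of the 77 to -0.35, and Mrpl3, Mrps5 and Mrps27 turned slightly positive. Of the 12 choroid plexus epithelium markers, 6 had a positive and 6 a negative log2 fold change in edgeR's fit, with a median of -0.01. None of the 12 had an unadjusted p under 0.05. Other marker lists were less even in the same fit. The 8 endothelial markers were all positive, with a median of 1.22, and 7 had an unadjusted p under 0.05. All 7 neuronal markers were positive, with a median of 1.999 and 2 under 0.05. So were the 6 markers of macrophages and microglia, with a median of 0.52 and 2 under 0.05. The 5 erythrocyte markers were all negative, with a median of -0.15 and none under 0.05. In bulk tissue, fewer cells of a type and less RNA per cell cannot be told apart.

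The low values sat in particular libraries rather than in all T1 libraries. The mean log2(CPM + 0.5) over the 77 genes was 5.68 to 5.99 in the controls and 5.81 in T1 replicate 1. In T1 replicates 2, 3 and 4 it was 5.42, 5.23 and 5.10, and in T3 replicate 4 it was 5.15. The other T3 libraries were at 5.75 to 5.87 and the T5 libraries at 5.75 to 6.07. T1 replicate 1 and 3 of the T3 libraries were thus within the control range, and the 4 libraries with title numbers of 28 or above were all under it.

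**Figure D1:**
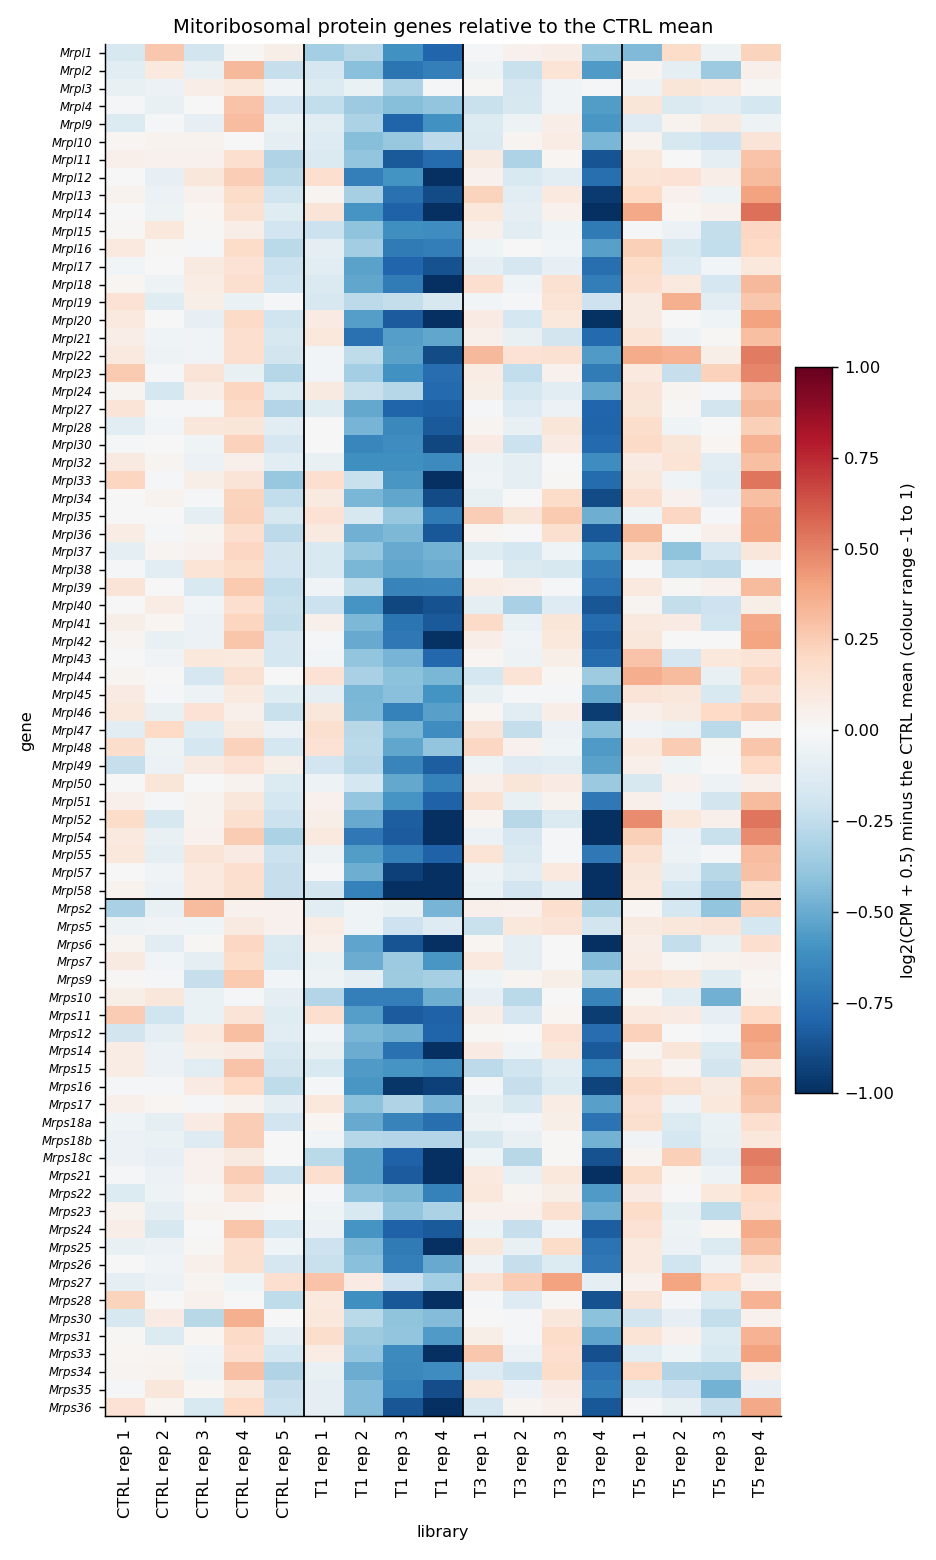
Each row is 1 of the 77 mitoribosomal protein genes and each column 1 library; colour gives log2(CPM + 0.5) minus the mean of the 5 CTRL libraries, limited to -1 to 1. T1 replicates 2, 3 and 4 and T3 replicate 4 are blue in nearly every row (Mrps27 in T1 replicate 2 is above its control mean), with medians of -0.44, -0.62, -0.78 and -0.71, while the median of T1 replicate 1 is -0.03.

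Counted gene by gene, 70 of the 77 were below the lowest control in T1 replicate 2, where 20.8% of all genes tested were. In T1 replicates 3 and 4 the number was 76 each, against 24.4% and 28.6% of all genes, and in T3 replicate 4 it was 74, against 24.9%. In T1 replicate 1, 10 were below (17.9% of all genes; 30 of the 77 with library totals in place of TMM scaling) and 2 above (18.1%). T5 replicate 4 stood on the other side, with 52 of the 77 above the highest control, against 19.2% of all genes. In that library 3.47% of counts came from mitochondrial DNA. The highest such share, 3.75%, was in T5 replicate 2, where 11 of the 77 were above the highest control (22.1% of all genes). With library totals the number above in T5 replicate 4 was 14, and those below in the 4 low libraries were 61 to 69.

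**Figure D2:**
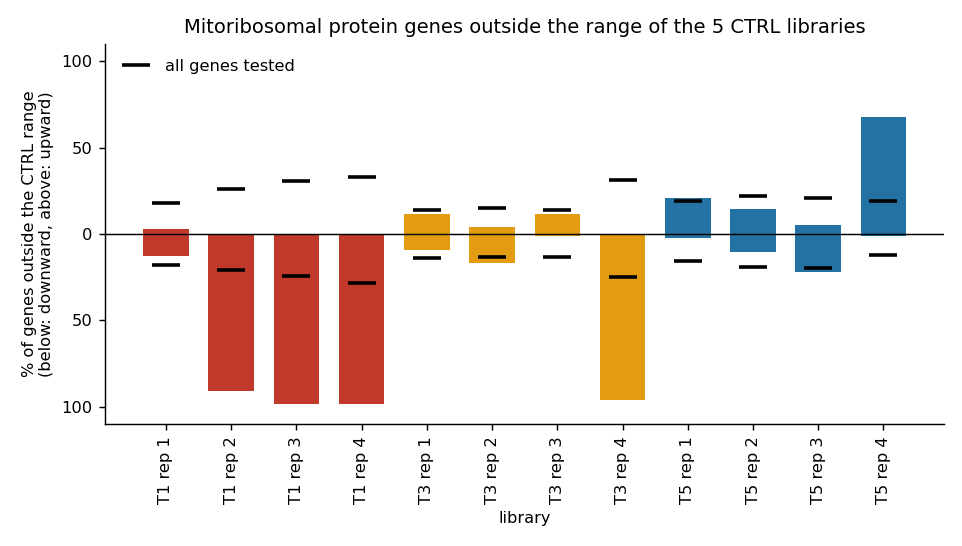
Bars give the percentage of the 77 mitoribosomal protein genes below (downward) or above (upward) the range of the 5 CTRL libraries in each treated library; black marks give the same for all 16851 genes tested. The downward bars of T1 replicates 2, 3 and 4 and T3 replicate 4 reach 90.9% to 98.7%, past marks at 20.8% to 28.6%.

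Given with and without those libraries, the T1 difference depended on them. With a term for title numbers of 28 or above in the model, the median log2 fold change of the 77 genes at 1 day was 0.020. Without the 4 libraries it was -0.055, with T1 replicate 1 as the only T1 library, taken to vary like the other groups. Without T1 replicate 1 the median was -0.60, and edgeR then called 56 of the 77 lower, against 8.68% of all genes tested in that fit. Without T3 replicate 4, which is outside this comparison but enters the shared estimate of spread, edgeR called 23 lower, against 2.87% of all genes.

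Among single genes, Mrpl40 had the smallest p. Its product sits in the central protuberance, the crest of the large subunit. It was at 60.4, 63.4, 59.0, 67.6 and 51.6 CPM in the controls and at 51.6, 39.9, 31.8 and 32.7 CPM in T1 replicates 1 to 4. T1 replicate 1 lay at the lowest control and the other 3 well under it, and T3 replicate 4 had 33.0 CPM. The log2 fold change at T1 was -0.63 ± 0.16 (SE), with an adjusted p of 0.131 in edgeR, 0.0153 in DESeq2 and 0.00473 in limma-voom.

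Mrps10, a small subunit protein with a bacterial counterpart, was the second by p. The controls had 35.6, 37.0, 32.7, 34.004 and 31.96 CPM and the T1 libraries 27.9, 21.1, 21.1 and 24.2 CPM. Here all 4 T1 libraries, the first included, were under all 5 controls. The log2 fold change was -0.54 ± 0.14 (edgeR adjusted p 0.131). Such separation of T1 from CTRL on the low side held for 9 of the 77 genes (11.7%, against 3.86% of all genes): Mrpl1, Mrpl4, Mrpl10, Mrpl15, Mrpl19, Mrps10, Mrps18c, Mrps25 and Mrps26. None lay wholly above the controls (2.9% of all genes). Mrps25 shares 69.8% of its exon bases with Nr2c2 on the opposite strand, and the sources used here do not say whether strand was used in counting.

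Mrps15, Mrpl49, Mrpl17 and Mrps26 followed, with log2 fold changes of -0.49, -0.47, -0.55 and -0.46 and edgeR adjusted p of 0.135 to 0.138. Mrpl17 lies at the exit of the peptide tunnel. It had 99.3 to 127 CPM in the controls, 107 CPM in T1 replicate 1, and 79.5, 66.4 and 62.6 CPM in the other T1 libraries, so 3 of 4 T1 libraries were below every control. The controls of Mrps15 were at 80.2, 73.3, 70.4, 93.1 and 67.0 CPM, and its T1 libraries at 68.5, 51.3, 50.5 and 49.1 CPM. Mrpl49 had 77.2 to 101 CPM in the controls and 79.5, 74.4, 57.4 and 51.2 CPM at T1. In both genes T1 replicate 1 was inside the control range and the other 3 were not. Mrps26, a mitochondria-specific small subunit protein, had 65.3 to 82.1 CPM in the controls and 63.2, 54.9, 45.5 and 51.7 CPM at T1, without overlap. The gene with the most negative fold change was picked after the values were seen. Mrpl58, a peptidyl-tRNA hydrolase built into the large subunit that can free stalled peptides, had -0.71 ± 0.22. Its controls ran from 191 to 250.4 CPM and its T1 libraries were at 198, 140, 110.5 and 105 CPM.

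**Figure D3:**
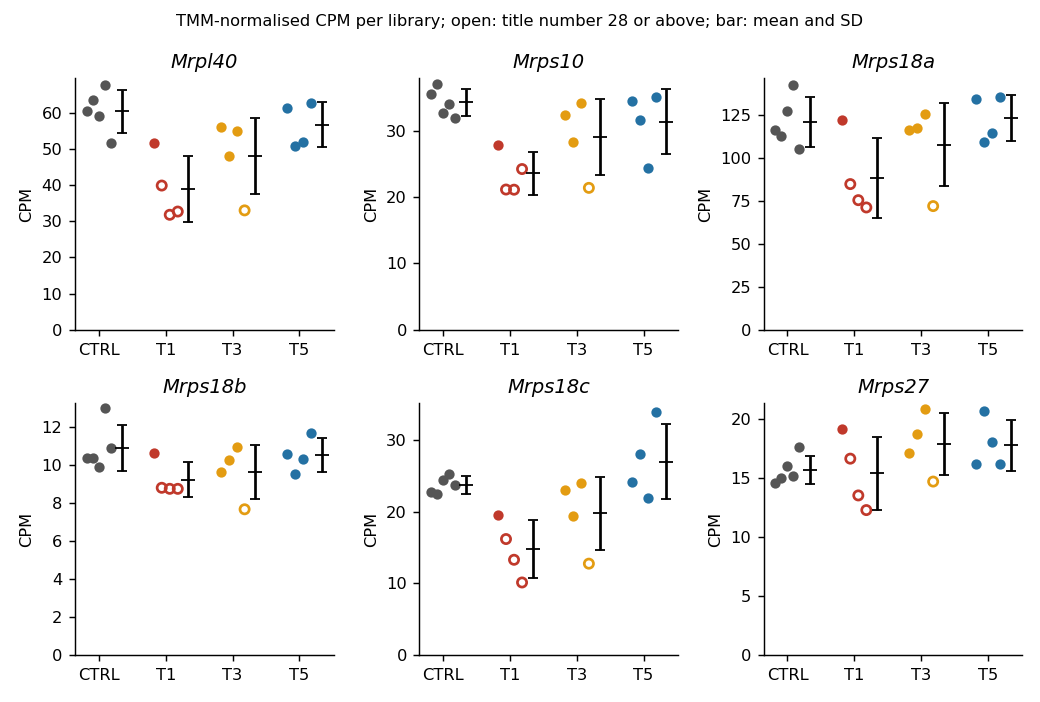
TMM-normalised CPM of 6 genes in every library by group; open circles are the libraries with title numbers of 28 or above, and bars give mean and SD. For Mrpl40, Mrps10, Mrps18a, Mrps18b and Mrps18c the open circles lie under all CTRL points. For Mrps27 they reach from 12.3 to 16.7 CPM, around the CTRL range of 14.6 to 17.7 CPM.

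The 3 fold changes nearest to 0, picked after the values were seen, belonged to Mrps27, Mrps5 and Mrpl3. Mrps27, a small subunit protein with pentatricopeptide repeats, had 14.6 to 17.7 CPM in the controls and 19.2, 16.7, 13.5 and 12.3 CPM at T1, a log2 fold change of -0.03 ± 0.14. Mrps5 had 31.9, 29.5, 26.3 and 27.7 CPM at T1 against 29.4 to 32.4 CPM in the controls, a log2 fold change of -0.08 ± 0.10. Mrpl3, a large subunit protein with a bacterial counterpart, had 28.9, 30.3, 25.5 and 31.6 CPM against 30.2 to 34.2 CPM (-0.13 ± 0.09). Values of T1 and CTRL overlapped for all 3.

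The structural groups of the ribosome hardly differed from each other at 1 day. The median log2 fold change was -0.45 for the 29 large subunit proteins with a bacterial counterpart, of which 21 had an unadjusted p under 0.05. It was -0.41 for the 21 large subunit proteins specific to mitochondria (17 under 0.05). For the small subunit it was -0.48 over 16 proteins with a bacterial counterpart (11 under 0.05) and -0.45 over 10 without (6 under 0.05). The central protuberance had a median of -0.55 over 7 genes and the polypeptide exit site -0.40 over 6. Of all genes tested, 11.7% were lower at an unadjusted p under 0.05. None of the genes in these groups passed the adjusted threshold in edgeR.

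The stalk of the large subunit recruits translation factors. Mrpl12, whose product binds those factors, had 70.8, 66.7, 76.4, 83.7 and 58.4 CPM in the controls and 79.4, 43.8, 46.5 and 35.2 CPM at T1 (log2 fold change -0.48 ± 0.20). Mrpl11, at the stalk base, had 56.8 to 78.7 CPM in the controls and 63.3, 53.1, 38.99 and 40.9 CPM at T1 (-0.52 ± 0.18). Mrpl10, which carries the Mrpl12 copies, was steadier, at 54.2 to 59.1 CPM in the controls and 52.8, 42.7, 44.1 and 47.9 CPM at T1 (-0.30 ± 0.11). All 3 were low in T1 replicates 2, 3 and 4. edgeR adjusted p were 0.150 to 0.191.

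The 3 paralogs of bacterial S18 differ in place and level. Mrps18c belongs to the small subunit and had 22.8, 22.4, 24.4, 25.3 and 23.7 CPM in the controls. It was at 19.6, 16.2, 13.3 and 10.1 CPM in the T1 libraries, all below the controls (-0.68 ± 0.20, edgeR adjusted p 0.138). Of its exon bases 23.2% are shared with Gm43511 on the same strand. Mrps18a, whose product sits in the large subunit despite its name, had 105 to 142 CPM in the controls and 122, 84.8, 75.4 and 71.2 CPM at T1 (-0.45 ± 0.17). Mrps18b, of the small subunit, had 9.88 to 12.97 CPM in the controls and 10.6, 8.80, 8.74 and 8.74 CPM at T1 (-0.24 ± 0.14, adjusted p 0.324). Whether the 3 fold changes differ from each other was not tested.

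Other genes carry the Mrps name but belong elsewhere. The Mrps30 product sits in the large subunit, and its gene was at 19.4 to 30.5 CPM in the controls and 25.5, 19.6, 17.7 and 17.4 CPM at T1 (-0.26 ± 0.15). Mrps36 is now known as a part of the 2-oxoglutarate dehydrogenase complex. It had 15.4 to 20.6 CPM in the controls and 16.6, 13.1, 9.65 and 8.29 CPM at T1 (-0.60 ± 0.22), with T3 replicate 4 at 9.73 CPM. T1 replicate 1 was within the control range and the other 3 T1 libraries were below it.

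At 3 days of DSS the genes lay nearer to the controls, with which T1 and T5 were compared as well. Of the 77, 74 had a negative log2 fold change, Mrpl22, Mrpl35 and Mrps27 being the exceptions, and the median was -0.16 (0.02 over all genes). None was called by edgeR, DESeq2 or limma-voom; edgeR and limma-voom called none of all genes (0%) and DESeq2 0.00593% in each direction. At an unadjusted p under 0.05, 2 were lower, Mrps15 (-0.31 ± 0.13) and Mrpl4 (-0.24 ± 0.11), against 1.77% of all genes, and none was higher (3.2%). Mrpl40 (-0.33 ± 0.16), Mrps26 (-0.27 ± 0.13), Mrpl38 (-0.24 ± 0.13) and Mrps10 (-0.24 ± 0.14) came next by p, and edgeR gave all 6 an adjusted p of 0.911. Mrpl4, whose product reaches into the peptide tunnel, was at 73.3, 76.5, 83.5 and 57.8 CPM at T3, against 74.9 to 104.3 CPM in the controls. Mrpl38, of the central protuberance, was at 95.8, 88.2, 87.1 and 59.8 CPM against 85.2 to 111 CPM. T3 and CTRL values overlapped in both. Mrps15 had 67.0 to 93.1 CPM in the controls and 63.5, 66.3, 70.4 and 47.5 CPM at T3. The last of these is T3 replicate 4; without that library the median of the 77 genes was -0.023.

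After 2 days of water the genes were close to the control level. The median log2 fold change at T5 was 0.07 (0.02 over all genes), with 58 positive and 19 negative values. With library totals alone it was 0.02, with 46 positive. None was called by edgeR, DESeq2 or limma-voom (0% of all genes in edgeR, 0.0237% higher and 0.0712% lower in DESeq2), and none had an unadjusted p under 0.05 in edgeR, where 3.89% of all genes were higher and 3.94% lower. Mrpl22 had the smallest p, 0.0776, with 40.7, 40.1, 32.7 and 45.1 CPM at T5 against 27.6 to 35.3 CPM in the controls (0.34 ± 0.18). Mrpl52 was at 75.9, 58.7, 56.3 and 79.3 CPM against 46.7 to 62.0 CPM (0.30 ± 0.22). Mrps35 was on the other side, at 51.2, 48.4, 40.4 and 53.0 CPM against 47.8 to 60.8 CPM (-0.22 ± 0.17). In each of these 3 the T5 and CTRL values overlapped. Mrpl44, a large subunit protein with an RNase III fold, was at 34.5, 33.4, 25.3 and 30.8 CPM against 23.6 to 29.7 CPM (0.21 ± 0.14). Mrpl19 was at 25.6, 30.9, 22.4 and 29.2 CPM against 22.1 to 26.8 CPM (0.16 ± 0.11), and Mrps27 at 16.2, 20.7, 18.1 and 16.2 CPM against 14.6 to 17.7 CPM (0.18 ± 0.14). The third T5 library of Mrpl44 and of Mrpl19 lay inside the control range.

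**Figure D4:**
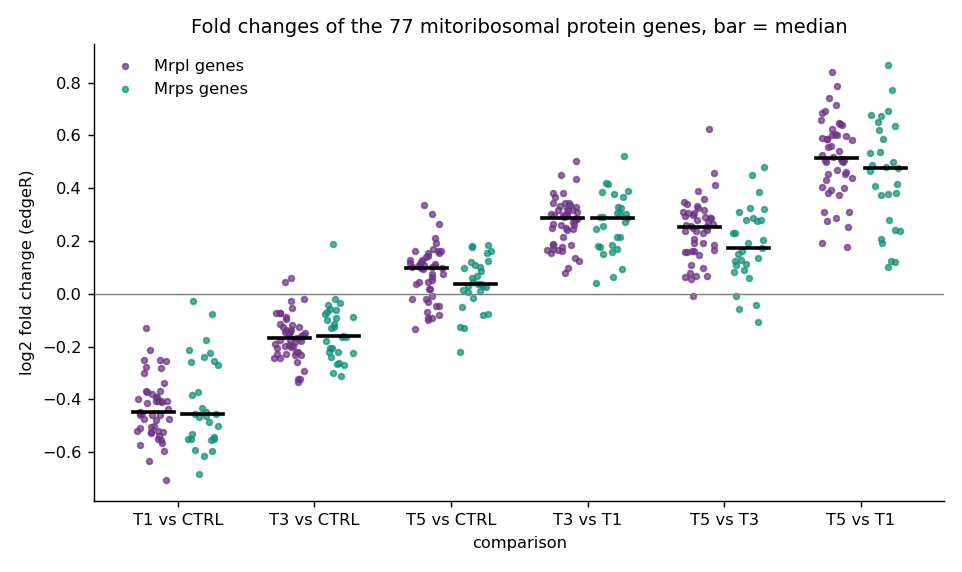
Each point is the edgeR log2 fold change of 1 gene in 1 of the 6 comparisons, Mrpl genes in purple and Mrps genes in green, with the median as a bar. Medians are -0.45 and -0.46 at T1 against CTRL and 0.51 and 0.48 at T5 against T1; the comparisons share groups, so they are not independent of each other.

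The only comparison in which mitoribosomal genes passed edgeR's adjusted threshold was T5 against T1. The log2 fold change was positive for all 77, and its median was 0.50 (-0.01 over all genes), and 5 rose (6.49%, against 1.23% of all genes), while none fell (2.78% of all genes). With library totals alone 74 were positive; Mrps2, Mrps5 and Mrps30 were slightly negative. At an unadjusted p under 0.05, 64 were higher (13.1% of all genes). DESeq2 called 33 and limma-voom 63, against 6.39% and 12.2% of all genes, and both called none lower (6.42% and 10% of all genes).

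Mrps18c rose most, by 0.87 ± 0.21 on the log2 scale (edgeR adjusted p 0.0332). It was at 24.1, 28.03, 21.9 and 33.9 CPM at T5, all above the T1 values of 19.6, 16.2, 13.3 and 10.1 CPM. Mrps16, another small subunit protein of bacterial descent, rose by 0.77 ± 0.20 (adjusted p 0.0443), from 49.4, 33.2, 25.2 and 25.9 CPM to 57.2, 55.5, 53.3 and 61.6 CPM. Its T1 and T5 values did not overlap either. Mrpl22, which lines the peptide tunnel, rose by 0.74 ± 0.19 (adjusted p 0.0419), from 30.7, 26.2, 21.4 and 16.6 CPM to the T5 values above, also without overlap.

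Mrpl32, a zinc-binding protein cut to its mature form after import, rose by 0.59 ± 0.15 (adjusted p 0.0406). It was at 40.3, 27.6, 27.6 and 27.04 CPM at T1 and at 45.0, 46.8, 39.4 and 52.3 CPM at T5, and the first T1 library lay within the T5 range. Mrpl49, found in mitochondrial ribosomes only, rose by 0.53 ± 0.14 (adjusted p 0.0473), from 79.5, 74.4, 57.4 and 51.2 CPM to 94.2, 88.2, 91.3 and 104 CPM without overlap. Groups did not overlap for 15 of the 77 genes (19.5%, against 5.52% of all genes). Leaving out any 1 of T1 replicates 2, 3 and 4 or of the T5 libraries left none of the 77 called. In those fits 0% to 0.368% of all genes were called higher and 0% to 1.86% lower. Leaving out T1 replicate 1 gave 62 of the 77 (10.5% of all genes in that fit). With only the libraries of T1 and T5 in the fit none of the 77 was called either (0.00662% of all genes higher, 0.272% lower). With a term for title numbers of 28 or above none was called, as for all genes (0%). The median log2 fold change was 0.043 with that term and 0.12 without the 4 libraries that carry such numbers.

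Between 1 and 3 days of DSS all 77 fold changes were positive, with a median of 0.29 (-0.02 over all genes). With the term for title numbers of 28 or above the median turned to -0.056, and without the 4 libraries it was 0.060. edgeR and DESeq2 called none (0% and 0.0119% of all genes higher, 0.131% lower in DESeq2). Limma-voom called 62 higher (12.5% of all genes). At an unadjusted p under 0.05, 7 were higher (9.09%, against 3.57% of all genes), and none was lower (4.63%). The 3 with the smallest p were Mrpl18 (0.50 ± 0.19), Mrpl1 (0.44 ± 0.17) and Mrps25 (0.52 ± 0.20). Mrpl18, which binds ribosomal RNA in the central protuberance, had 61.0, 46.7, 41.3 and 32.5 CPM at T1 and 75.5, 65.4, 74.7 and 41.5 CPM at T3. For Mrpl1, whose product forms the L1 stalk, the T1 values of 22.55, 23.5, 18.7 and 16.3 CPM stood against 28.4, 29.5, 30 and 21.9 CPM at T3. Each group holds low libraries, 3 in T1 and 1 in T3, and the values overlapped. With library totals alone 73 of the 77 were positive, and Mrps5, Mrps18b, Mrpl3 and Mrps17 were not.

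From 3 days of DSS to the water phase the median was 0.24 (0.01 over all genes), with 72 positive and 5 negative values. None was called by edgeR (0% of all genes), DESeq2 (0.184% higher, 0.315% lower) or limma-voom (0%). At an unadjusted p under 0.05, 4 were higher, near the 4.31% of all genes, and none was lower (6.15%). The 4 were Mrpl52, Mrps16, Mrps15 and Mrps18c. Mrpl52 was at 55.5, 44.8, 49.3 and 26.005 CPM at T3, below all of its T5 values (0.63 ± 0.23, edgeR adjusted p 0.411). Without T3 replicate 4 its log2 fold change was 0.44 and the median of the 77 genes was 0.077.

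The mitoribosomal genes are short, and short genes were low in the same libraries. This comparison was chosen after the values had been seen. Their coding sequences run from 261 to 1326 bases with a median of 588, against 1401 for 9093 other protein-coding genes with a mean of 10 CPM or more. Among those others, the median log2 fold change at T1 was -0.40 up to 450 bases (615 genes), -0.27 from 450 to 600 (590 genes), -0.20 from 600 to 900 (1248 genes) and 0.26 above 3000 (1326 genes). The mitoribosomal genes had -0.53 (22 genes), -0.47 (18 genes) and -0.41 (22 genes) in the first 3 of these ranges. In these and in the other 2 ranges that hold mitoribosomal genes, their median was below that of the other genes (-0.39 against -0.12 from 900 to 1200 bases, -0.17 against -0.02 from 1200 to 1800). Across genes, log coding length and log2 fold change at T1 had a Spearman rho of 0.51 for the 77 genes and 0.54 for the others; genes within a library are not independent, and no test is given.

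**Figure D5:**
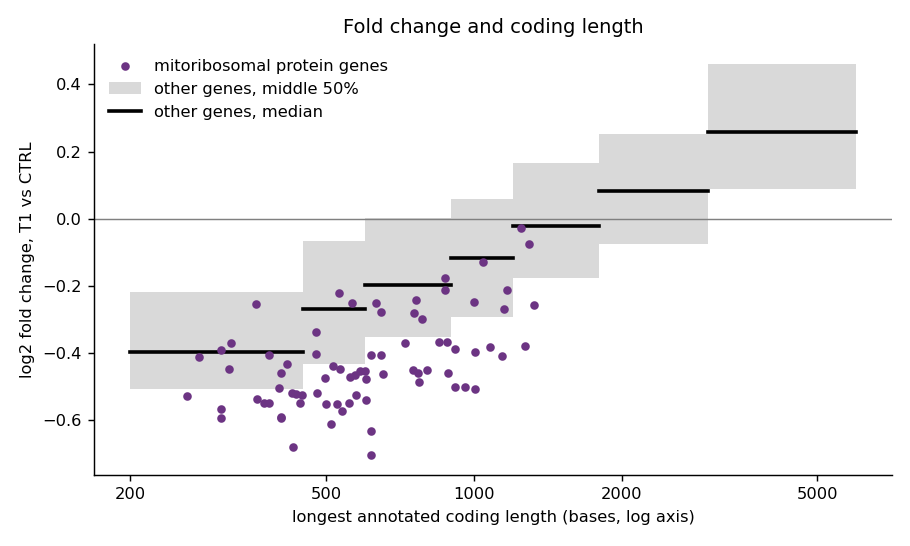
Points are the 77 mitoribosomal protein genes by their longest annotated coding length (log axis) and edgeR log2 fold change at T1 against CTRL; grey boxes span the interquartile range of the other protein-coding genes in each length range, and black lines are their medians. Both rise with length, from medians of -0.40 and -0.53 in the shortest range, and in each range with points their median is below the line.

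The same order held in single libraries. In T1 replicates 2, 3 and 4 and T3 replicate 4, other genes with coding sequences of up to 900 bases had medians of -0.29, -0.37, -0.46 and -0.39 relative to the controls (log2), and those above 1800 bases had 0.26, 0.23, 0.11 and 0.18. The medians of the mitoribosomal genes in these libraries were -0.44, -0.62, -0.78 and -0.71. The part of length, cell makeup or RNA quality in the low values was not tested.

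Other genes of the mitochondrial system were counted in lists by role. Mitoribosomal proteins with other symbols had a median of -0.43 at T1 over 5 genes, among them Gadd45gip1 (-0.57 ± 0.18). The 74 nuclear genes of the respiratory chain and ATP synthase had a median of -0.53, with 58 lower at an unadjusted p under 0.05 (11.7% of all genes), and the 81 cytosolic ribosomal proteins had -0.47, with 57 lower. The mRNAs made in the mitochondria themselves had a median of -0.41 over the 8 that could be tested, with a median coding length of 1089.5 bases. edgeR called none of these genes at T1.

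The remaining lists lay closer to the controls. The 25 assembly factors had a median of -0.18 at T1, with 6 lower and 1 higher at an unadjusted p under 0.05 (11.7% and 9.43% of all genes), and a median coding length of 1131 bases. Mtg2, a GTPase of large subunit assembly, had -0.41 ± 0.13. The 15 translation factors had a median of -0.16, among them Tsfm, the exchange factor of elongation factor Tu, with -0.53 ± 0.13 (edgeR adjusted p 0.128). The 17 aminoacyl-tRNA synthetases had a median of 0.02 and a median coding length of 1656 bases. The 10 genes of mitochondrial DNA upkeep and transcription had -0.05, and 9 regulators of mitochondrial biogenesis had -0.09, among them Nrf1 with 0.25 ± 0.14.

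Between T1 and T5, edgeR called genes in some of these lists. Of the assembly factors, 2 rose, among them Mettl15, a methyltransferase of the small ribosomal RNA (0.61 ± 0.15, adjusted p 0.0356). Of the translation factors, 2 fell: Guf1, by 0.83 ± 0.17 (adjusted p 0.0210), and Gfm2, a factor of ribosome recycling, by 0.56 ± 0.14. Their coding sequences are 1953 and 2337 bases long. Among the cytosolic ribosomal proteins 9 rose, among the respiratory chain genes 1, and among the synthetases, the regulators and the mitochondrially encoded mRNAs none, beside 1.23% of all genes that rose and 2.78% that fell.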

How the data were processed

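RNA-seq libraries of mouse choroid plexus were prepared with the SMART-Seq v4 kit, per the labels' protocols. The authors deposited raw read counts per gene, 1 table column per library. Trimmomatic 0.39, STAR 2.6.1b, featureCounts 1.6.4 and build GRCm38 are named in the submitters' processing notes; the sources used here do not give the settings for strand and for reads in overlapping genes. Gene IDs were matched to GENCODE M21, which held 55394 of the 55487. Groups come from the sample labels. The genes and lists were chosen with earlier results of these data known.

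Totals per library were 8875921 to 26839417 counts. Counts of all 17 libraries were fitted together with edgeR 4.0.16 (TMM scaling, quasi-likelihood test, R 4.3.3) over the 16851 genes that passed its filter on low counts, with Benjamini-Hochberg adjustment over all of them and a threshold of 0.05. The SE was approximated from the F statistic (size of the log2 value over root F). CPM values are TMM-normalised, except for the minimum of 1 CPM and the value of Mrpl53, which use library totals. Log values use a pseudocount of 0.5, and TPM used merged exon length. DESeq2 1.42.0, limma 3.58.1 (voom with quality weights), other scalings, filters, covariates and left-out libraries were alternatives. The scripts were tested on simulated data. Genes were named by rule: the 6 smallest p in each comparison with CTRL, the 3 smallest in the others, the 4 highest and 4 lowest in TPM, the 4 largest and 4 smallest control SDs, 8 genes by name (Mrps18a, Mrps18b, Mrps18c, Mrpl10, Mrpl11, Mrpl12, Mrps30 and Mrps36) and up to 3 per other list; exceptions are marked or belong to a count of 5 or fewer. The length comparison was added after the values were seen. Figures were drawn with matplotlib 3.10.9.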

Additional observations from a re-analysis of the deposited data

Results flagged for a closer look

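The levels of all 77 genes, and their mean, were checked in each group of 4 or 5 libraries, 312 checks in all. Of the single values, 33 lay far from the rest of their group, by the gap to the nearest value relative to the group's range (Dixon's test at 95%, on log2 values). Chance flags about 1 in 20 groups, and genes of 1 library are not independent. Values are TMM-normalised CPM, with the range of the other libraries of the group.

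T3 replicate 4 was low for 23 genes. Among them were Mrpl14 at 34.5 (69.3 to 79.7), Mrpl16 at 27.5 (39.3 to 40.2), Mrpl17 at 67.9 (102 to 109), Mrpl27 at 36.02 (57.3 to 62.2), Mrpl32 at 27.4 (39.9 to 42.2), Mrpl33 at 27.9 (45.1 to 48.3), Mrpl36 at 54.7 (98.9 to 111) and Mrpl39 at 30.95 (51.7 to 55.2). It was low for Mrpl42 at 115 (198 to 218), Mrpl43 at 19.1 (31.8 to 34.2), Mrpl45 at 32.6 (44.4 to 46.3), Mrpl46 at 22.7 (41.2 to 46.6), Mrpl49 at 62.5 (82.96 to 87.6), Mrpl50 at 54.8 (73.5 to 77.1), Mrpl54 at 40.8 (79.4 to 88.4) and Mrpl58 at 99.5 (196 to 214). It was low as well for Mrps12 at 55.6 (94.4 to 105), Mrps14 at 84.03 (146 to 163), Mrps18a at 72.00 (116 to 125), Mrps21 at 58.1 (111 to 126), Mrps22 at 16.6 (25.4 to 26.8), Mrps28 at 30.6 (51.5 to 56.99) and Mrps6 at 125 (241 to 261).

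T1 replicate 1 was high for Mrpl32 at 40.3 (27.04 to 27.6), Mrpl38 at 87.4 (67.7 to 70.7), Mrps15 at 68.5 (49.1 to 51.3) and Mrps18b at 10.6 (8.74 to 8.80). T1 replicate 4 was low for Mrps2 at 44.1 (56.6 to 59.3). Among the controls, replicate 5 was low for Mrpl11 at 56.8 (72.3 to 78.7), replicate 2 low for Mrps23 at 56.3 (60.6 to 61.9) and replicate 4 high for Mrpl9 at 46.5 (34.1 to 37.1). At T5, replicate 3 was low for Mrpl45 at 42.00 (50.5 to 52.05) and replicate 4 for Mrps5 at 26.8 (32.5 to 33.3).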

How the results depend on the processing

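At T1 against CTRL, edgeR called none of the 77 genes lower (0% of all genes), DESeq2 21 (3.28%) and limma-voom 62 (12.7%). Leaving out 1 library gave 0 to 56, with 56 without T1 replicate 1 (8.68%) and 23 without T3 replicate 4 (2.87%). The median log2 fold change of -0.45 turned to 0.020 with a term for title numbers of 28 or above, and to 0.024 with that term and a brain marker covariate. It was -0.32 with the covariate alone, -0.055 without those 4 libraries, and -0.60 to -0.35 with 1 library left out. The cause was not tested.

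At T3 against CTRL the median was -0.048 with limma-voom, -0.037 with the title term, -0.013 without the 4 libraries and -0.24 to -0.023 with 1 left out. At T5 against CTRL it was 0.21 with the brain covariate. At T3 against T1 limma-voom called 62 genes higher (12.5% of all genes), with a median of 0.51. That median was -0.056 with the title term and -0.067 with both terms, a reversal each time, 0.11 with the brain covariate, 0.060 without the 4 libraries and 0.18 to 0.46 with 1 left out. At T5 against T3 it was 0.11 with limma-voom, 0.11 with the title term, 0.41 with the brain covariate, 0.076 without the 4 libraries and 0.077 to 0.31 with 1 left out.

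At T5 against T1, edgeR called 5 higher (1.23% of all genes), DESeq2 33 (6.39%) and limma-voom 63 (12.2%). Library totals gave 19 (2.2%) and the brain covariate 46 (6.92%). The count was 0 with only the groups compared (0.00662% of all genes), with the title term (0%) and with both terms (0%). Leaving out 1 library gave 0 to 62, with 62 without T1 replicate 1 (10.5% of all genes) and 49 without T3 replicate 4 (6.8%). The count was 0 without any 1 of T1 replicates 2 to 4 or of the T5 libraries (0% to 0.368%). It was 1 without any 1 of CTRL replicates 2 to 5 or without T3 replicate 2 (0.584% to 0.788%). It was 2 without T3 replicate 1 or 3 (0.621% and 0.776%). The median was 0.35 with library totals, 0.043 with the title term, 0.11 with both, 0.12 without the 4 libraries and 0.41 to 0.68 with 1 left out.

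The median level was 61.0 TPM with the longest transcript, and 7 promoters held the NRF1 letters without the free position. No paired analysis was possible because the labels give no replicate numbers shared between groups; numbers used here follow accession order. With 3 of 4 T1 libraries among those with title numbers of 28 or above, 1 day of DSS rests on 1 library outside that set.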
